A study of Mus musculus with 12 samples.

Results

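MicroRNA (miRNA) levels after 5 X-ray fractions of 2 Gy were compared with those after a single fraction of 2 Gy in LLC1 cells, a cultured line of mouse Lewis lung carcinoma. The comparison used 6 of the 12 arrays of the study, chosen by their labels alone: 3 labelled 5x2 Gy and 3 labelled 2 Gy. The other 6 arrays hold untreated cells and cells given 10 Gy at once, 3 each, and entered the fit only to help estimate the spread. The labels name no genetic change in any group. All cells were grown in the same serum-containing medium, and RNA was taken 4 h after irradiation. The fraction size was therefore the same in both groups, and they differed in the 4 additional fractions and in the total dose, 10 Gy against 2 Gy. The labels give no interval between fractions, so the time since the first fraction is not known here. Each label says biological replicate without naming a culture or a day of its own, so the p-values below measure the spread between these samples, which may be technical in part. A single transformed line in culture has no host vessels, stroma or immune cells.

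MicroRNAs are short RNAs that guide Argonaute proteins to messenger RNAs, mainly by pairing of the seed, bases 2 to 8 of the mature miRNA, and so lower the output of their targets. Ionizing radiation breaks DNA, and p53, the transcription factor activated by such breaks, directly raises transcription of the miR-34 genes. The miR-34 miRNAs in turn repress cyclins, cyclin-dependent kinases and other drivers of the cell cycle.

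The miRNAs on which the comparison turns are shown here as mature sequences from RefSeq (GRCm38.p6), 5′ to 3′, with the seed in capitals, because their families are defined by that seed. RefSeq held a sequence for 101 of the 118 miRNAs tested. The first 5 below passed the test, and each of the others is a family or cluster partner of a described miRNA, or shares the seed of miR-130a-3p, whose seed group had negative differences.
miR-34b-5p: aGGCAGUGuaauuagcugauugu
miR-125a-5p: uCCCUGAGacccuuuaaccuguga
miR-199a-5p: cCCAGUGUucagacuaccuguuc
miR-30c-5p: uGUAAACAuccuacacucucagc
miR-100-5p: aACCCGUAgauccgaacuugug
miR-125b-5p: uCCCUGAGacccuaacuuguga
miR-99b-5p: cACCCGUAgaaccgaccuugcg
miR-30e-5p: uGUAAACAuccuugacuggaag
miR-26a-5p: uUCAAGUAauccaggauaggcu
miR-25-3p: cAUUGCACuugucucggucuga
miR-93-5p: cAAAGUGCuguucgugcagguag
miR-106b-5p: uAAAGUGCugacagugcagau
miR-29a-3p: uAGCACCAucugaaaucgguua
miR-29c-3p: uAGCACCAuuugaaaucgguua
miR-130a-3p: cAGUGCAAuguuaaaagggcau
miR-301a-3p: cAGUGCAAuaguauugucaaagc
The miR-125 pair shares its seed and differs at 7 of 22 compared positions. MiR-29a-3p and miR-29c-3p differ at 1 of 22 positions, so how far their probes separate them is not known here.

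The 2 groups lay on different slides, which were also scanned separately. All 2 Gy arrays were on slide 1 and all 5x2 Gy arrays on slide 2. Group and slide therefore cannot be told apart from these 6 arrays. The 10 Gy group was on both slides, replicates 1 and 2 on slide 1 and replicate 3 on slide 2, and gives the only link between them. Array brightness, the 75th percentile of the probe signal that was used for scaling, was 316, 897 and 324 on the 2 Gy arrays and 1088, 1102 and 1004 on the 5x2 Gy arrays. The 5x2 Gy arrays were all brighter than the 2 Gy arrays, by 1.24 on the log2 scale (2.36-fold; exact two-sided permutation p = 0.1, the smallest that 3 arrays against 3 allow). On 2 Gy replicate 2 brightness was far nearer to the 5x2 Gy arrays than on the others of its group. In the 10 Gy group replicate 3 was the brightest, at 867 against 388 and 307. A slide difference within 10 Gy, as given below, is therefore 1 array against 2 and cannot be told apart from brightness.

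Out of 566 mouse entries, 67, 110 and 76 miRNAs were detected on the 2 Gy arrays, and 120, 137 and 124 on the 5x2 Gy arrays. The means were 84.3 ± 22.7 (SD, n = 3) and 127 ± 8.89, a difference of 42.7 with no overlap (exact two-sided permutation p = 0.1, again the smallest possible). In each of the 4 groups the brightest array also had the most detected miRNAs, and the part of brightness in the difference was not tested.

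**Figure D1:**
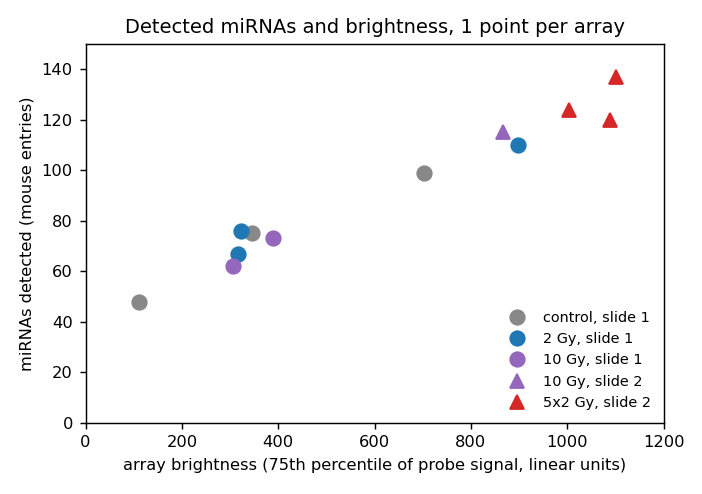
Number of mouse miRNAs detected (y axis, of 566 entries) against array brightness (x axis, 75th percentile of probe signal, linear units), 1 point per array, coloured by group, with circles for slide 1 and triangles for slide 2. The 3 arrays of 5x2 Gy, at 120 to 137 miRNAs, are the brightest 3 of the 12, and 2 Gy replicate 2 and 10 Gy replicate 3 lie nearest to them.

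Levels below are log2 values relative to each array's brightness, and a difference is the 5x2 Gy mean minus the 2 Gy mean, n = 3 against 3. A floor at -4.06 replaced all lower values. Of the 118 miRNAs tested, 74 lay above the floor on all 6 arrays, 21 lay at it on all 6 and 23 on some. All 118 were detected on every 5x2 Gy array and 67 on every 2 Gy array, so 51 entered the test through the 5x2 Gy group. Counts of positive differences that include such miRNAs are not evidence of a rise.

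After 5 fractions 3 miRNAs that lay above the floor on all 6 arrays were higher than after 1: miR-34b-5p, miR-125a-5p and miR-199a-5p (2.54% of all tested), by 0.34 to 0.67 on the log2 scale. The test also called miR-30c-5p and miR-100-5p, which entered it only through the 5x2 Gy group, lay at the floor on most or all arrays of 2 Gy and had a difference of 0 with the floor doubled, so their calls are not evidence of a rise. By limma with Benjamini-Hochberg adjustment these were 5 of 118 (4.24%), all higher, and 0 were lower. At an unadjusted limma p under 0.05 there were 23 higher (19.5%) and 0 lower. The arrays of the groups did not overlap for 36 miRNAs (30.5%), 29 higher (24.6%) and 7 lower (5.93%). The differences of all 118 had a median of 0.04 and ran from -0.51 to 0.89, with 66 positive (55.9%), 31 negative (26.3%) and 21 at 0 (17.8%). Over the 74 above the floor the median was 0.09, with 54 positive and 20 negative. The fit with slide as a block, which rests on 10 Gy replicate 3 alone, called 0 of 118, with 6 higher and 0 lower at an unadjusted limma p under 0.05. Scaling by the median called 0 as well, with 7 higher and 5 lower at that unadjusted p, and every direction below was obtained under scaling by the 75th percentile of bright probes.

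**Figure D2:**
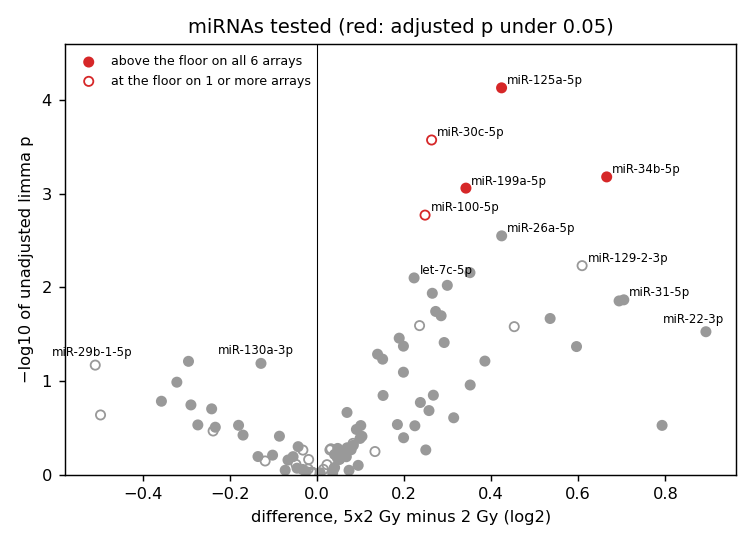
Difference of each tested miRNA (x axis, 5x2 Gy minus 2 Gy, log2) against minus log10 of its unadjusted limma p (y axis), with filled points for miRNAs above the floor on all 6 arrays, open points for those at it on at least 1, and red for adjusted p under 0.05. The 5 red points all lie to the right of 0, between 0.25 and 0.67, while miR-22-3p has the highest difference, 0.89, at a lower y value.

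MiR-34b-5p, encoded with miR-34c at a locus that p53 activates, had the largest rise of the called miRNAs. Its level was -1.00, -1.56 and -1.02 on the 2 Gy arrays and -0.55, -0.55 and -0.49 on the 5x2 Gy arrays. Every 5x2 Gy array was above every 2 Gy array, and the lowest 2 Gy value was that of the bright replicate 2. The difference was 0.67 (SE 0.14, 95% interval 0.36 to 0.97, 1.59-fold; limma adjusted p = 0.0256). Both probes of the miRNA gave a positive difference, 0.58 and 0.75. In untreated cells it was at -1.71, -1.65 and -1.87, below every irradiated array, and after 10 Gy at once at -0.92, -0.79 and -0.95, below every 5x2 Gy array. Within 10 Gy, the array on slide 2 was 0.10 below the mean of the arrays on slide 1, and the SD over the 3 arrays was 0.088. With slide as a block the difference was 0.76, but with an SE of 0.25 it did not pass (limma adjusted p = 0.687). It was positive under every alternative tried, and 0.48 to 0.76 with 1 array left out, where the call was lost without 10 Gy replicate 1 or any 1 array of 5x2 Gy. The call was also lost in a fit of the 6 arrays of these groups alone (0.67, limma adjusted p = 0.0915), under median and quantile scaling (0.51 and 0.54), with normexp at offsets of 50 and 1 (0.46 and 0.58), with the brightest probe (0.58), with no filter, with the replicate number as a block and with the authors' log2 values.

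Its locus partner miR-34c-5p did not pass. Its level was -0.77, -1.98 and -0.82 on the 2 Gy arrays and -0.84, -1.05 and -0.92 on the 5x2 Gy arrays. The 5x2 Gy values lay inside the range of the 2 Gy values, whose spread came from replicate 2. The difference was 0.25 (SE 0.40; limma adjusted p = 0.974), and it was -0.14 without 2 Gy replicate 2. With array brightness as a covariate it was 0.96 (limma adjusted p = 0.004). Over only the arrays brighter than 700, a setting chosen after seeing the data, it was 1.04. There control, 2 Gy and 10 Gy are lone arrays, so the spread comes from 5x2 Gy alone and no p-value is given. Within 10 Gy the array on slide 2 was 0.89 below those on slide 1. The 3p arms, miR-34b-3p and miR-34c-3p, were detected on all 3 arrays of 5x2 Gy and on none of 2 Gy, but lay at the floor on all 6, so no fold is given.

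Of the 13 entries of p53-responsive miRNAs, 7 were tested, of which 5 had positive differences, 0 negative and 2 were at 0. The median was 0.07, against 0.04 over all 118, and 1 was called, miR-34b-5p. Apart from miR-34c-5p, the uncalled members above the floor on all 6 arrays were miR-16-5p (0.35, limma adjusted p = 0.406), which restrains cyclins, and miR-107-3p (0.07, limma adjusted p = 0.637). For miR-16-5p the slides differed by 0.60 within 10 Gy, and with slide as a block its difference was -0.25.

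The list of the miR-99, miR-100 and miR-125 families held 2 of the 5 calls (4.24% of all tested miRNAs were called), 1 of which, miR-100-5p, depends on the floor. MiR-125a-5p, a repressor of ERBB receptor messages that is processed from a transcript shared with miR-99b and let-7e, had the smallest p of all. Its level was -2.45, -2.31 and -2.33 on the 2 Gy arrays and -1.92, -1.93 and -1.98 on the 5x2 Gy arrays. The groups were separated by more than the whole range of either. The difference was 0.42 (SE 0.06, 95% interval 0.28 to 0.57, 1.34-fold; limma adjusted p = 0.00871), and its probes gave 0.51 and 0.34. Within 10 Gy the array on slide 2 was higher by 0.15, and with slide as a block the difference was 0.27 (SE 0.10; limma adjusted p = 0.687). Its sign turned with normexp background correction at an offset of 50 (-0.075), and the call was lost under median and quantile scaling (0.27 and 0.23). It was also lost without scaling, with normexp at an offset of 1 and with the authors' log2 values. With 1 array left out the difference was 0.38 to 0.45, and the call was lost without 5x2 Gy replicate 1.

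MiR-125b-5p, with the same seed, was at 0.59, 0.26 and 0.90 after 2 Gy and at 0.93, 0.81 and 0.81 after 5x2 Gy. The highest 2 Gy array reached the 5x2 Gy values, and the difference of 0.27 (SE 0.17) did not pass (limma adjusted p = 0.494). It passed with brightness as a covariate (0.52, limma adjusted p = 0.0213).

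MiR-99b-5p, which lies beside miR-125a in Spaca6 on chromosome 17 of GRCm38.p6, was at -3.04, -2.60 and -2.76 after 2 Gy. It was at -2.14, -2.13 and -2.04 after 5x2 Gy, above all 2 Gy arrays. The difference of 0.69 (SE 0.23, 1.62-fold) did not pass (limma adjusted p = 0.126), and the array on slide 2 was 0.47 higher within 10 Gy. Let-7e-5p, between them in the cluster, had a difference of 0.18 (limma adjusted p = 0.737), so 3 of the 3 guide strands were positive, and miR-125a-3p lay at the floor on all 6 arrays.

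MiR-100-5p, a repressor of Mtor and Plk1 messages, shares its seed with miR-99b-5p. Its level was -4.05, -4.06 and -4.06 after 2 Gy and -3.82, -3.83 and -3.79 after 5x2 Gy. The groups did not overlap, but on 2 of the arrays of 2 Gy the value was the floor itself, it was detected on 1 of them, and 1 of its 2 probes was at the floor on all 6 arrays. The difference of 0.25 (SE 0.06; limma adjusted p = 0.0398) therefore depends on the floor: it was 0 with the floor doubled and 0.68 with the floor 4 times lower (limma adjusted p = 0.26). Within 10 Gy the array on slide 2 was higher by 0.17, with slide as a block the difference was 0.081 (limma adjusted p = 1), and with brightness as a covariate it was 0.22 (limma adjusted p = 0.0867). The sign turned with normexp at offsets of 50 and 1 (-0.20 and -0.055). The call held with 3 of the 12 arrays left out in turn, those being control replicates 1 and 2 and 10 Gy replicate 3. Of the 9 entries of the list 6 were tested, 4 positive and 2 at 0, with a median of 0.26. Among them miR-100-5p, miR-125a-3p and miR-99a-5p entered the test only through the 5x2 Gy group.

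**Figure D3:**
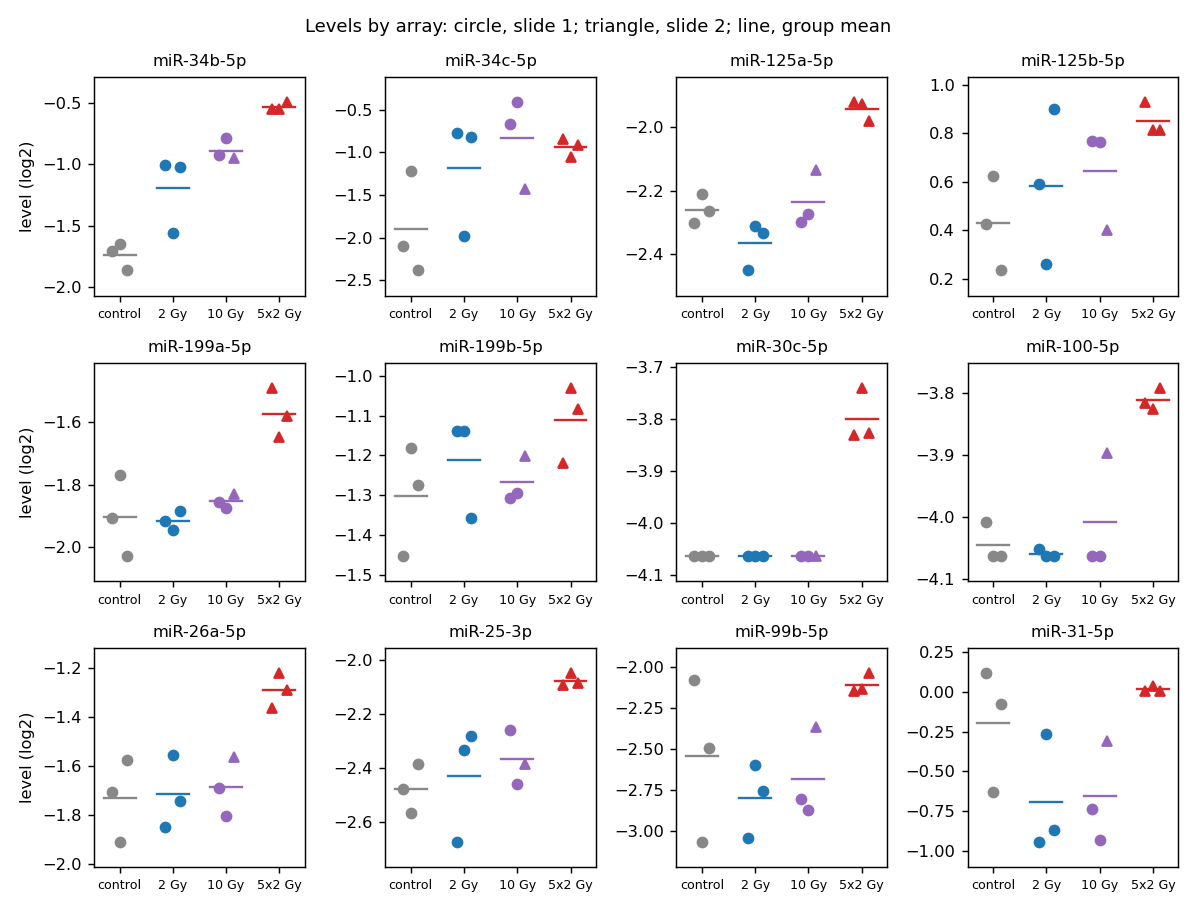
Level (y axis, log2 relative to array brightness, a different range in each panel) of 12 miRNAs on all 12 arrays by group, with circles for slide 1, triangles for slide 2 and a line at each group mean. The 3 triangles of 5x2 Gy lie above all 2 Gy circles for miR-34b-5p, miR-125a-5p, miR-199a-5p, miR-30c-5p, miR-100-5p, miR-31-5p, miR-26a-5p, miR-99b-5p and miR-25-3p, and within or across the 2 Gy range for miR-34c-5p, miR-125b-5p and miR-199b-5p.

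MiR-199a-5p, made from the Dnm3os transcript on chromosome 1 and a second copy in Dnm2 on chromosome 9, is abundant in mesenchymal cells and represses Hif1a messages. Its level was -1.92, -1.95 and -1.89 after 2 Gy and -1.49, -1.65 and -1.58 after 5x2 Gy. All 5x2 Gy values were above all of the tightly spaced 2 Gy values. The difference was 0.34 (SE 0.07, 95% interval 0.18 to 0.50, 1.27-fold; limma adjusted p = 0.0256), with 0.30 and 0.39 from its 2 probes. Within 10 Gy the slides differed by 0.03, and with slide as a block the difference was 0.31 (SE 0.14; limma adjusted p = 0.687). The call was lost under median and quantile scaling (0.19 and 0.15) and, with differences of 0.30 to 0.38, when 1 array was left out: replicate 1 or 3 of 2 Gy, 1 or 2 of 10 Gy, or 1 or 3 of 5x2 Gy. The sign turned with normexp at an offset of 50 (-0.0089). The call was lost as well without scaling, with normexp at an offset of 1, with a floor 4 times lower and with the brightest probe. No filter, outlier spots kept, the replicate number as a block and the authors' log2 values lost it too.

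Its opposite arm miR-199a-3p had a difference of 0.08 (limma adjusted p = 0.974), and its paralogue miR-199b-5p one of 0.10 (SE 0.09; limma adjusted p = 0.737). MiR-214-3p, from the same Dnm3os transcript, stood at 0.29 (SE 0.12; limma adjusted p = 0.217). Of 9 tested members of the fibroblast and endothelial list, 6 were positive, 1 negative and 2 at 0, with a median of 0.08 and 1 call.

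MiR-30c-5p belongs to a family that represses Snai1 messages and is encoded in part within Nfyc on chromosome 4, beside miR-30e. It lay at the floor of -4.06 on all arrays of 2 Gy, and at -3.83, -3.74 and -3.83 on the 5x2 Gy arrays. All 9 arrays of the other groups were at the floor, although it was detected on 1 of the 2 Gy arrays. The difference of 0.26 (SE 0.05; limma adjusted p = 0.0157) was 0 with the floor doubled and 0.92 with the floor 4 times lower (limma adjusted p = 0.000826), so its size is set by the floor. The sign turned with normexp at an offset of 50 (-0.15). The call was lost without 2 Gy replicate 1 or without 5x2 Gy replicate 1 or 3 (0.23 to 0.28 with 1 array left out).

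MiR-30e-5p was at -4.06, -3.48 and -4.06 after 2 Gy and -3.36, -3.37 and -3.52 after 5x2 Gy. The bright 2 Gy replicate 2 lay within the 5x2 Gy values, and the difference of 0.45 did not pass (limma adjusted p = 0.172). The 5 tested family members had 4 positive differences and 1 at 0, with a median of 0.26 and 1 call. That median was the difference of miR-30c-5p itself, whose size is set by the floor. All members but miR-30b-5p (0.27, limma adjusted p = 0.124) entered the test only through the 5x2 Gy group. The count of positive differences is therefore not evidence of a rise.

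MiR-26a-5p, a repressor of Ezh2 messages, was the nearest miss, at -1.85, -1.56 and -1.74 after 2 Gy and -1.36, -1.22 and -1.29 after 5x2 Gy. The groups did not overlap, and the difference was 0.42 (SE 0.11, 1.34-fold; limma adjusted p = 0.0553). The 2 Gy array nearest to 5x2 Gy was the bright replicate 2. On slide 2 the 10 Gy array was higher by 0.19 than those on slide 1, and with slide as a block the difference was 0.24 (SE 0.19). MiR-26a-5p differs from miR-26b-5p at 2 of 21 compared positions outside the shared seed. MiR-26b-5p had a difference of -0.05 (SE 0.11; limma adjusted p = 1).

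MiR-129-2-3p came next (0.61, SE 0.17; limma adjusted p = 0.0986). It entered the test only through the 5x2 Gy group, so its rank is not evidence of a rise. It was at the floor on 2 Gy replicate 2 and at -3.45 and -3.25 on the other two, against -2.88, -3.06 and -2.99 after 5x2 Gy.

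The cluster of miR-106b, miR-93 and miR-25 lies within Mcm7, which encodes a subunit of the replicative helicase, on chromosome 5 of GRCm38.p6. Its miRNAs repress Cdkn1a, which encodes the cell cycle inhibitor p21. MiR-25-3p was at -2.67, -2.33 and -2.28 after 2 Gy and -2.09, -2.05 and -2.09 after 5x2 Gy. MiR-93-5p was at -2.17, -1.91 and -2.17 and then at -1.85, -1.76 and -1.78. MiR-106b-5p was at -1.50, -1.40 and -1.67 and then at -1.36, -1.17 and -1.23. In each of the 3 the groups did not overlap, as for 24.6% of all tested miRNAs in that direction. The differences were 0.35 (SE 0.10), 0.29 (SE 0.10) and 0.27 (SE 0.10), and none passed (limma adjusted p = 0.102, 0.158 and 0.152). Within 10 Gy the array on slide 2 stood at -0.03, 0.26 and 0.22 relative to slide 1, and with slide as a block the differences were 0.38, 0.03 and 0.06.

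Over all clusters of the miR-17 family, growth-promoting miRNAs induced by MYC, 12 of 21 entries were tested. Of these 11 were positive and 1 negative, with 0 calls. Their median was 0.19, against 0.09 over the 74 miRNAs above the floor on all 6 arrays, of which 54 were positive. The median slide difference of the list within 10 Gy was 0.26. With slide as a block the median of the list was -0.14. Of the 6 members encoded together on chromosome 14, 5 were positive and 1 negative, miR-17-3p (-0.36, limma adjusted p = 0.553), with a median of 0.06. The positive members there ran from miR-19a-3p (0.04) to miR-18a-5p (0.23).

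Let-7 miRNAs, which repress Ras and Hmga2 messages, had 8 positive differences and 1 negative among 9 tested, and 5 members did not overlap between the groups, all higher (24.6% of all tested). None was called, and the median was 0.15. Let-7c-5p was highest, at -0.29, -0.41 and -0.25 after 2 Gy and -0.14, -0.09 and -0.05 after 5x2 Gy (0.22, SE 0.07; limma adjusted p = 0.104). MiR-98-5p, which shares the let-7 seed, was the negative member (-0.50, SE 0.39; limma adjusted p = 0.661; 0.24 with slide as a block) and was at the floor on 1 of the 5x2 Gy arrays. Under median scaling the median of the family was 0.00.

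MiR-29 miRNAs repress collagen messages and Mcl1. MiR-29a-3p was at 0.58, 1.06 and 0.54 after 2 Gy and 1.33, 1.31 and 1.32 after 5x2 Gy. All 5x2 Gy arrays were higher, and the 2 Gy array nearest to them was again replicate 2. The difference was 0.60 (SE 0.26, 1.51-fold, limma adjusted p = 0.219). Within 10 Gy the array on slide 2 was 0.66 above those on slide 1, and with slide as a block the difference was -0.06. MiR-29c-3p behaved likewise, with 0.54 between the groups (limma adjusted p = 0.158) and 0.43 between the slides within 10 Gy. The passenger strand miR-29b-1-5p was at the floor on all arrays of 5x2 Gy and on 2 Gy replicate 2, and at -3.23 and -3.37 on the other two (-0.51, limma adjusted p = 0.274).

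The list of miR-15, miR-16, miR-322, miR-103 and miR-107 relatives, with 7 tested members, 5 positive and 2 negative, had a median of 0.04. Its extremes were miR-16-5p (0.35, and -0.25 with slide as a block) and miR-15b-5p (-0.23, limma adjusted p = 0.748, and 0.11 with slide as a block), and 0 were called. The list of miR-23, miR-27 and miR-24 had 2 positive and 3 negative members and a median of -0.03, which was 0.40 with slide as a block. MiR-24-3p, a repressor of the histone H2AX message, stood at -0.55, -0.56 and -0.46 after 2 Gy and -0.16, -0.28 and -0.23 after 5x2 Gy. The groups did not overlap, and the difference was 0.30 (SE 0.09; limma adjusted p = 0.112), with 0.02 between the slides within 10 Gy. MiR-27a-3p from the same cluster was lower on every 5x2 Gy array (-0.18, limma adjusted p = 0.737), where the slides differed by -0.58 within 10 Gy and the difference with slide as a block was 0.40.

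Among miRNAs that target or tune the DNA damage response, 14 of 22 entries were tested, with 9 positive, 3 negative and 2 at 0, a median of 0.04 and 1 call, miR-100-5p. Its highest members were miR-25-3p (0.35), miR-24-3p (0.30) and miR-125b-5p (0.27), which other lists hold as well. MiR-21a-5p, which represses Pdcd4, was its lowest, at 3.00, 2.35 and 2.82 after 2 Gy and 2.27, 2.60 and 2.48 after 5x2 Gy. The groups overlapped, and the difference of -0.27 (SE 0.25) did not pass (limma adjusted p = 0.737). The slides differed by -0.54 within 10 Gy, and with slide as a block the difference was 0.27.

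**Figure D4:**
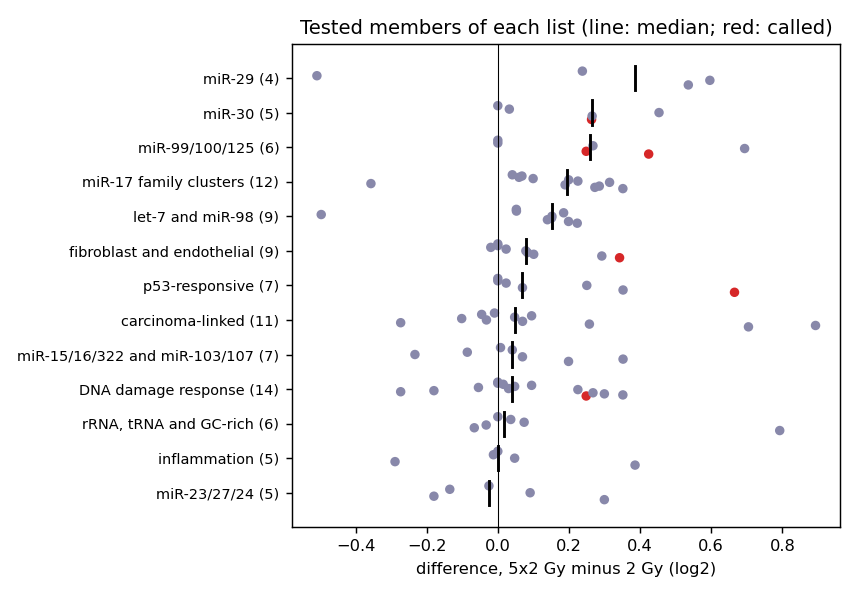
Difference of each tested member (x axis, 5x2 Gy minus 2 Gy, log2) in the 13 lists with at least 3 tested members, whose number is in parentheses, with a line at the list median and red for adjusted p under 0.05. The medians run from -0.03 for the miR-23, miR-27 and miR-24 list to 0.39 for miR-29, against 0.04 over all 118 tested miRNAs.

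Of the 17 entries of the carcinoma-linked list 11 were tested, and 6 were detected on no array. No other cell type was arrayed, so detection of its members cannot check the label of the line. The summed linear level of the list was 7.74 to 10.4 after 2 Gy and 7.86 to 9.18 after 5x2 Gy. MiR-21a-5p, miR-31-5p, miR-221-3p and miR-222-3p were detected on all 6 arrays. MiR-22-3p had the largest difference of the comparison. It was at -2.91, -2.27 and -2.33 after 2 Gy and -1.58, -1.62 and -1.63 after 5x2 Gy, with no overlap. With an SE of 0.35 the difference of 0.89 (1.86-fold) did not pass (limma adjusted p = 0.184), and the slides differed by 0.17 within 10 Gy. MiR-31-5p was at -0.94, -0.27 and -0.86 and then at 0.00, 0.03 and 0.00, a difference of 0.70 (limma adjusted p = 0.126) where the slides differed by 0.52. The list as a whole had 6 positive and 5 negative members, a median of 0.05 and 0 calls.

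Markers of other cells were present in part. The miR-200 family, which defines epithelial cells, was not detected on any array, and of 14 epithelial entries 2 were tested, miR-182-5p (0) and miR-96-5p (0.02). Of 14 muscle, nerve and liver entries 0 were tested. Of 7 blood cell entries 2 were tested, miR-142a-3p (-0.29, limma adjusted p = 0.572; detected on all 6 arrays; 0.19 with slide as a block) and miR-142a-5p (-0.01, limma adjusted p = 1), and the other 5 were detected on no array. The summed linear level of the blood list was 0.924 to 0.991 after 2 Gy and 0.767 to 0.935 after 5x2 Gy, where all members at the floor would give 0.419. Of the 13 fibroblast and endothelial entries 9 were tested, and their summed level was 2.61 to 2.99 and then 3.01 to 3.08, where all members at the floor would give 0.778, so it was higher on every 5x2 Gy array, and its part in the result for miR-199a-5p, a member, was not tested.

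Inflammation-linked miRNAs had 5 tested members, 2 positive, 2 negative and 1 at 0. MiR-212-3p was highest (0.39, limma adjusted p = 0.269), with 0.61 between the slides within 10 Gy. MiR-690, an entry often traced to other RNA classes, had a difference of 0.79 with an SE of 0.72 (limma adjusted p = 0.737), and the slides differed by 1.00 within 10 Gy. MiR-720_v18.0, a withdrawn name for a transfer RNA piece, differed by -0.07. The 8 entries of the rRNA, tRNA and GC-rich list, of which 6 were tested, had a median of 0.02 and 0 calls. Of 73 Dlk1-Dio3 entries 1 was tested, miR-494-3p (0.04), and of 24 Sfmbt2 entries 0.

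No miRNA was called lower. The smallest p in that direction belonged to miR-193a-3p, a repressor of Mcl1 messages, at -2.67, -3.22 and -3.10 after 2 Gy and -3.46, -3.15 and -3.27 after 5x2 Gy. The groups overlapped, and the difference was -0.29 (limma adjusted p = 0.269). MiR-130a-3p was at 0.05, -0.04 and -0.09 and then at -0.20, -0.15 and -0.12, without overlap but by only -0.13 (limma adjusted p = 0.272). MiR-301a-3p, with the same seed, was lower on every 5x2 Gy array (-0.32, limma adjusted p = 0.391). Its slide difference within 10 Gy was -0.48, and the difference with slide as a block was 0.16. On slide 1 the bright 2 Gy replicate 2 stood at -3.31, against -2.90 and -2.89 on replicates 1 and 3. The cause was not tested. MiR-130b-3p, the third of the seed group, stood at -0.04. None of the 3 passed.

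Of the 566 entries, 14 were detected on all 3 arrays of 5x2 Gy and on none of 2 Gy, 28 on all 3 and on 1, and 9 on all 3 and on 2; the reverse, all 3 of 2 Gy and none of 5x2 Gy, occurred for 0. The 14 included the 3p arms of miR-34b and miR-34c, miR-146a-5p, which damps inflammatory signalling, miR-148b-3p, miR-152-3p, miR-193b-3p, miR-28a-5p, miR-320-3p, miR-324-5p and miR-331-3p. Set against the lowest detected signal of each 2 Gy array, none exceeded a bound of 1, so no fold is given. These numbers move with brightness, and its part was not tested.

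Of the 18 seeds shared by at least 2 tested miRNAs, 5 were shared by 3 or more miRNAs with a positive median, GAGGUAG (let-7; 0.15), AAAGUGC (miR-17 family; 0.19), ACCCGUA (miR-99 and miR-100; 0.25), AGCACCA (miR-29; 0.54) and GUAAACA (miR-30; 0.26). The other seeds of that size were AGCAGCA (miR-15 and miR-16), with 2 positive and 2 negative members and a median of -0.023, and AGUGCAA (miR-130 and miR-301), with 3 negative differences of 3 and a median of -0.13. The positive median of the miR-99 and miR-100 seed was the difference of miR-100-5p itself, and that of the miR-30 seed was miR-30c-5p's. Both differences were 0 with the floor doubled, so neither median is evidence of a rise. Of the 3 miRNAs with each seed, 1 and 0 lay above the floor on all 6 arrays. Within 10 Gy the median slide difference was -0.02 for let-7, 0.26 for the miR-17 family seed and 0.43 for miR-29. GC content of the mature sequence and the difference had r = 0.22 and rho = 0.27 over 64 miRNAs above the floor. These miRNAs share the same 6 arrays.

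Across the 71 miRNAs above the floor on all 12 arrays, the difference between the groups and the slide difference within 10 Gy had r = 0.57 and rho = 0.56, and 51 had the same sign. No array entered both values, and the slide difference rests on 10 Gy replicate 3 alone, a bright array. The difference of the bright 2 Gy replicate 2 from replicates 1 and 3, all on slide 1, followed the same 10 Gy difference with r = 0.87 and rho = 0.92. These are descriptions over miRNAs, which are not independent replicates. The called miR-34b-5p, miR-199a-5p and miR-125a-5p had slide differences of -0.10, 0.03 and 0.15, and miR-25-3p, not called, one of -0.03. That of miR-34c-5p was -0.89, and those of miR-29a-3p, miR-31-5p and miR-690 were at 0.52 or above.

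**Figure D5:**
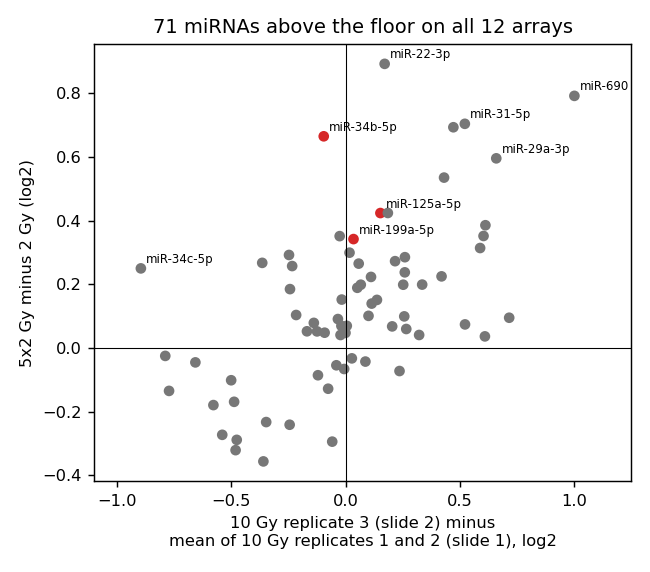
Difference between 5x2 Gy and 2 Gy (y axis, log2) against the difference of 10 Gy replicate 3 on slide 2 from the mean of 10 Gy replicates 1 and 2 on slide 1 (x axis, log2), 1 point per miRNA above the floor on all 12 arrays, red where adjusted p was under 0.05. The points run from lower left to upper right (r = 0.57, 71 miRNAs), and the 3 red points lie between -0.10 and 0.15 on the x axis.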

How the data were processed

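Total RNA of LLC1 cells was labelled with Cy3 and hybridised to Agilent 1-colour miRNA arrays, 1 per sample, per the labels' protocols. The deposited scanner files hold linear spot intensity, which the authors extracted with version 10.7.3.1 of Agilent Feature Extraction, as the submitters' processing notes and the file headers say; spot flags deposited in the same files served as filters. In the authors' deposited series table the values are on the log2 scale. They equal log2 of the processed signal with values under 1 set to 1, shifted by -0.27 to 0.51 per array, and served as an alternative. Its column medians ran from -0.19 to 1.14 and its column means were 1.98, so scale, centring and direction were settled.

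Control and outlier spots (2.06 to 4.98% per array) were left out; 0 spots were saturated. Probe signals, the averages of their spots, were scaled per array to the 75th percentile of the 78 probes that every array detected, floored at 0.0598 and put on the log2 scale. Detection of a probe required more than 0.5 of its spots to stand well above background. The level of a miRNA averages its probes with detection on 3 or more arrays (all its probes where there were none), and it was tested where detected on all 3 arrays of at least 1 of the 4 groups. Limma 3.58.1 in R 4.3.3 fitted all 12 arrays without covariates (8 residual and 1.72 prior degrees of freedom); two-sided p-values were adjusted by Benjamini-Hochberg over 118 miRNAs, with a threshold of 0.05. MiRNAs at the floor on all 12 arrays stayed out of the estimate of the spread and counted in the adjustment. Intervals cover 95%, and precision is limited by the number of arrays.

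Named miRNAs were the called ones, those with the smallest p until 5 per direction, the miR-34 family, up to 8 detected in only 1 group, the highest and lowest of each list and tested markers of other cells; others, such as miR-26a-5p, miR-129-2-3p and the cluster and seed partners, were named after their values were seen. The comparison, lists and rules were chosen with earlier results of these data known. No 2 arrays were identical. Normexp used median spot and background signals, since the mean signal was not used here. The code was tested on simulated data. Sequences, host genes and neighbours are from RefSeq on GRCm38.p6, while the array design names another build, so no coordinates are given.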

Additional observations from a re-analysis of the deposited data

How the results depend on the processing

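The main analysis called 5 miRNAs. Scaling over all probes called 109, all higher, and no scaling 26, all higher; they shifted the median difference of all tested miRNAs to 1.33 and 1.12, and the authors' deposited log2 values, with 2 calls, to 1.22. Median scaling and normexp at offsets 50 and 1 called 0, and quantile scaling 1. A doubled floor, the restriction to miRNAs detected on all 6 arrays (67 tested), no filter (566 tested) and outlier spots kept called 3 each, and a floor 4 times lower 8. Slide as a block called 0, a covariate for the mean level of rRNA, tRNA and GC-rich entries 19 (18 higher, 1 lower), and brightness as a covariate 6. The setting of arrays brighter than 700, chosen after seeing the data, called 25 (20 higher, 5 lower). Leaving out 1 array gave 0 (without 5x2 Gy replicate 1) to 9 (without control replicate 2 or 2 Gy replicate 2); it gave 1 without 5x2 Gy replicate 3, 2 without 2 Gy or 10 Gy replicate 1, and 3 without 10 Gy or 5x2 Gy replicate 2. The difference in detected miRNAs ran from 34 to 55.5 and that in log2 brightness from 0.98 to 1.73. MiR-125a-5p was called in 14 of 21 other settings and with 11 of 12 arrays left out in turn, and miR-34b-5p in 11 and 8. Both counts of settings include the arrays brighter than 700, where control, 2 Gy and 10 Gy are lone arrays and the spread comes from 5x2 Gy alone. That setting is therefore not support, and its calls, higher or lower, are not evidence of a rise or a fall. Apart from that setting, those in which miR-199a-5p lost its call are named with its levels.

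No pairing by replicate number was seen, though deviations from a mean of 3 arrays cannot exclude one. Same-numbered deviations of the groups correlated at -0.37, 0.05 and -0.22 over 74 miRNAs. With the replicate block 1 miRNA was called, miR-125a-5p.

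Signs turned with normexp at offset 50 for miR-125a-5p (-0.075), miR-199a-5p (-0.0089), miR-30c-5p (-0.15) and miR-100-5p (-0.20), and at offset 1 for miR-100-5p (-0.055). Under scaling over all probes, below or near its general shift, the negative differences became positive: miR-193a-3p 0.70, miR-130a-3p 1.32, miR-29b-1-5p 0.76, miR-301a-3p 0.91, miR-17-3p 0.77, miR-28a-5p 0.57, miR-98-5p 0.89, miR-15b-5p 1.22, miR-27a-3p 1.27, miR-21a-5p 1.18, miR-142a-3p 1.16, miR-140-5p 0.52, miR-720_v18.0 1.39, miR-142a-5p 0.93 and miR-26b-5p 1.40. Without scaling miR-28a-5p (0.49) and miR-140-5p (0.42) did so. With slide as a block, without passing, signs turned for miR-301a-3p (0.16), miR-98-5p (0.24), miR-15b-5p (0.11), miR-27a-3p (0.40), miR-21a-5p (0.27), miR-142a-3p (0.19) and miR-16-5p (-0.25), among others. Apart from these shifts, the cause of each change was not tested.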
